A study of Homo sapiens with 9 samples.

Results

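The genes described here make, move, sense and remove adenosine or keep the pools of AMP, ADP and ATP in balance. They are NT5E, ADORA1, ADORA2A, ADORA2B, SLC29A1, ADA, ADK, AMPD2, AMPD3 and AK4, and they were chosen by name as rows of the deposited count table. All 10 were found among its 27671 genes. Of the 10, 9 were tested, since ADORA2A did not pass the filter on low counts, which left 15551 genes. RNA was sequenced from A498, an established cell line from a human kidney tumour of the clear cell type (ccRCC), labelled WT for genotype. All cells had been infected with a lentivirus that carried a short hairpin RNA in a pLKO.1 vector, selected in puromycin at 2.5 µg/mL for 1 week and then kept at 1.25 µg/mL. The 3 groups were shControl, with a control hairpin, shBMAL1, with a hairpin against BMAL1, and shARNT, with a hairpin against ARNT. Each had 3 samples, called biological replicates in the labels. A single hairpin stood for each target, so an effect of the depleted gene and an effect of that hairpin alone cannot be told apart, and nothing in the labels says whether replicates came from separate infections.

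Outside the cell, ATP and ADP released from stressed or dying cells are cut to AMP, and CD73, the product of NT5E, removes the last phosphate to give adenosine. Adenosine acts through G-protein-coupled receptors: the one encoded by ADORA1 (A1) lowers cyclic AMP, whereas those encoded by ADORA2A and ADORA2B raise it. The transporter ENT1 (SLC29A1) carries adenosine across the plasma membrane, and inside the cell adenosine deaminase (ADA) turns it into inosine while adenosine kinase (ADK) turns it back into AMP. AMP deaminases (AMPD2, AMPD3) convert AMP to IMP, and AK4 is a mitochondrial member of the adenylate kinase family, whose enzymes pass phosphates between adenine nucleotides. Several genes of the pathway are known to respond to hypoxia, and ARNT pairs with HIF1α or HIF2α to form the hypoxia-inducible factors. BMAL1, a related protein, pairs with CLOCK to drive the circadian clock. The study depleted each partner to ask what it contributes to transcripts driven by HIF2α.

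ARNT and BMAL1 recognize short motifs with their partners. The core of the hypoxia response element was searched as ACGTG or GCGTG and the E-box as CACGTG, on both strands, in the 250 bases before each RefSeq transcription start. An E-box holds the letters ACGTG on both strands and so was counted under both motifs. RefSeq gave 20 such windows (GRCh38.p14) for 9 of the 10 genes and none for ADORA2A, and each was placed by exact match in GRCh37, the build named in the study's methods. A core of the hypoxia response element was present in 10 of the 20 windows, and in 43.2% of all 35116 windows. An E-box was present in 3 of the 20 windows, and in 6.34% of all windows. Windows of AK4, SLC29A1 and AMPD2 held the E-boxes. The windows of NT5E and ADORA1, 1 for each gene, held neither string of letters. All 250 bases of each lay in annotated exons of its gene, and the bases before annotated starts farther upstream were not searched. The first windows of AK4 and SLC29A1 and the window of ADORA2B are shown as examples that hold a motif, from genes that differed between groups. Other such genes, among them AMPD3, also had a window with a motif and are not shown. Motifs are in capitals, and each sequence ends before the first annotated exon base of its gene in GRCh37.
AK4, chr1:65612985-65613231, plus strand: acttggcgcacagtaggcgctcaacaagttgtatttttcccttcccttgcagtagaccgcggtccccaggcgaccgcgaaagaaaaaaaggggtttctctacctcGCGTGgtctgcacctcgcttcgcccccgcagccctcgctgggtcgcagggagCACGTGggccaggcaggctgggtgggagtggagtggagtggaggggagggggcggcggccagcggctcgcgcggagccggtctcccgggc
SLC29A1, chr6:44187102-44187289, plus strand: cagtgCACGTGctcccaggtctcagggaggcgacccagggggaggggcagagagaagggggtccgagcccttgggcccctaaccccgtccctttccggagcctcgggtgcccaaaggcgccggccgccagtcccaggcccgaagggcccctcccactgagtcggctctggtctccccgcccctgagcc
ADORA2B, chr17:15848194-15848443, plus strand: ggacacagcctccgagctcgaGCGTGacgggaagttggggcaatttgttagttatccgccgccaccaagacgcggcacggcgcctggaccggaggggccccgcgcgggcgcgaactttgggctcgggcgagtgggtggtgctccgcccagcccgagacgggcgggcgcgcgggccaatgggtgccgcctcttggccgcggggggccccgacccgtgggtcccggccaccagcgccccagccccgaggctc
The E-box of AK4 began 93 bases before the start and a GCGTG 145 bases before it. The E-box of SLC29A1 began 245 bases before the start, at the far edge of the window, and the GCGTG of ADORA2B began 229 bases before the start. The start shown for SLC29A1 is an alternative one, 3980 bases from that of its canonical transcript, whose own window held neither motif. The start shown for AK4 lies 651 bases from the canonical one, whose window held 3 GCGTG and no E-box, while that of ADORA2B is canonical. A match of letters is a description of the sequence and says nothing of binding, and no binding data were used.

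The libraries were even in depth, with totals of 35269857 to 36099083 counts. ARNT had a mean level of 50.5 CPM (counts per 1000000 counts of the library, whose total was scaled by trimmed means of M values) in shControl, 32.3 in shBMAL1 and 9.46 in shARNT. BMAL1, listed under its older symbol ARNTL, had 16.3 CPM in shControl, 5.02 in shBMAL1 and 23.8 in shARNT, so each target was lowest in its own group. ARNT was also lower in shBMAL1 than in shControl (log2 fold change -0.65, adjusted p = 1.55e-08). EPAS1, which encodes HIF2α, had 345, 233 and 74.2 CPM in shControl, shBMAL1 and shARNT. HIF1A had 140, 421 and 390 CPM in the same order. Of 8 markers of kidney epithelium and ccRCC, all 8 reached 1 CPM in every group, but their summed level was between 7740 and 7800 CPM in shControl, between 5730 and 6210 in shBMAL1 and between 2050 and 2210 in shARNT. Most of that sum was VIM, with 5970, 4310 and 812 CPM in the same order. In shARNT 6 of the 8 were lower at an adjusted p under 0.1 (edgeR's quasi-likelihood test), beside 41.3% of all tested genes. PAX8 was higher (log2 fold change 1.48, adjusted p = 2e-14), as were 40.5% of all tested genes, and KRT18 stood at -0.01 (adjusted p = 0.871). In shBMAL1 5 were lower and 3 higher, beside 31.5% and 31.9% of all tested genes. Among the 3 were CDH16 (1.55, adjusted p = 1.64e-09) and KRT19 (0.97, adjusted p = 5.53e-08). Endothelial markers (3 genes) summed to at most 0.323 CPM in a library. Leukocyte markers other than CD68 (3 genes) summed to at most 0.395 CPM, with CD3E at 0 in all libraries, while CD68 ranged from 136 to 1900 CPM and was lowest in shARNT.

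Most genes of these cells differed between groups. At an adjusted p under 0.1 by edgeR's quasi-likelihood test, 81.8% of all tested genes were called in shARNT against shControl, 41.3% lower and 40.5% higher. In shBMAL1 against shControl 63.4% were called, 31.5% lower and 31.9% higher. In shARNT against shBMAL1 81.2% were called, 41.1% lower and 40.1% higher in shARNT. Against this background, 9 of the 9 tested adenosine and adenylate genes were called in shARNT, with 5 lower and 4 higher. In shBMAL1 7 of 9 were called, with 2 lower and 5 higher, and in the direct comparison of both depletions 9 of 9 were called, with 7 lower and 2 higher in shARNT. The totals called lie near what the background gives for 9 genes, so the sizes and the directions of single genes carry the description. Directions were less even than the background in shBMAL1 (5 of 9 higher) and in the direct comparison (7 of 9 lower), which was not tested. Absolute log2 fold changes of the 9 genes had medians of 0.83 (shARNT), 0.87 (shBMAL1) and 1.02 (direct comparison), beside 0.66, 0.32 and 0.65 over all tested genes. With library sizes unscaled, the median change of all genes in shARNT, on the log2 scale, moved from -0.01 to 0.23 and the share of higher genes among those called from 49.6% to 60.5%. In bulk RNA, fewer cells that express a gene and less RNA per cell cannot be told apart.

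**Figure D1:**
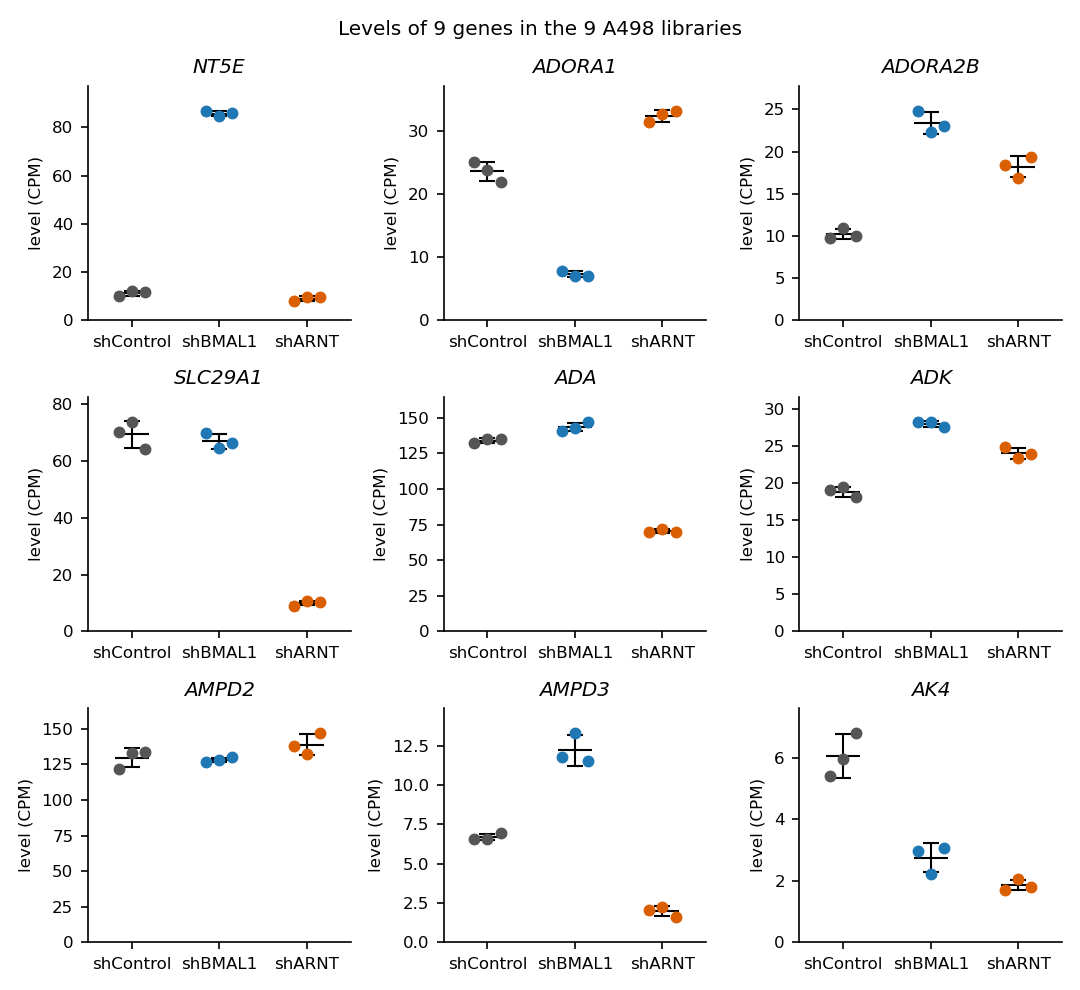
Level in CPM (vertical axis, from 0) of 9 genes in each of the 9 libraries, by group (horizontal axis). Points are libraries, and the bar and whiskers are the mean ± SD of 3 replicates. NT5E stood at 84.6 to 86.7 CPM in shBMAL1 and at 12.1 or below elsewhere. SLC29A1, ADA, AMPD3 and AK4 were lowest in shARNT, and so was NT5E, with a mean of 9.04 CPM beside 11.2 in shControl.

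NT5E rose most of the 9 tested genes after depletion of BMAL1. NT5E (chromosome 6, 86159302 to 86205509, plus strand, GRCh37) encodes CD73, the surface enzyme that makes adenosine from AMP. Its counts were 334, 398 and 384 in shControl, 2964, 2913 and 2917 in shBMAL1, and 311, 380 and 384 in shARNT. The 3 shBMAL1 libraries lay far above the other 6, and no shBMAL1 value overlapped another group. The mean was 11.2 ± 1.08 CPM (SD, n = 3) in shControl and 85.7 ± 1.07 CPM in shBMAL1, which was 7.62-fold higher (log2 fold change 2.93, SE 0.08, adjusted p = 8.37e-17). In shARNT the mean was 9.04 ± 1.03 CPM, -0.31 from shControl on the log2 scale (SE 0.09, adjusted p = 0.0027). That small fall depended on scaling: with library sizes unscaled it was -0.08 with adjusted p = 0.411. Compared directly, NT5E was 9.47-fold lower in shARNT than in shBMAL1 (log2 fold change -3.24, adjusted p = 1.12e-18).

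The A1 receptor gene showed the opposite order of groups. ADORA1 (chromosome 1, 203059782 to 203136533, plus strand) had 831, 782 and 725 counts in shControl, 268, 242 and 239 in shBMAL1, and 1240, 1294 and 1312 in shARNT. The 3 groups were separate, with shBMAL1 lowest and shARNT highest. From 23.6 ± 1.52 CPM (SD, n = 3) in shControl it fell 3.23-fold to 7.3 ± 0.469 CPM in shBMAL1 (log2 fold change -1.69, SE 0.08, adjusted p = 4.65e-13). In shARNT it was 32.4 ± 0.927 CPM, 1.37-fold higher (log2 fold change 0.46, SE 0.07, adjusted p = 4.47e-06), or 0.70 on the log2 scale with library sizes unscaled. The direct comparison gave a level 4.43-fold higher in shARNT than in shBMAL1 (adjusted p = 1.02e-15).

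The A2B receptor gene rose in both depletions. ADORA2B (chromosome 17, 15848444 to 15879060, plus strand) encodes the low-affinity receptor that raises cyclic AMP at high adenosine. It had 325, 359 and 331 counts in shControl, 847, 769 and 781 in shBMAL1, and 728, 669 and 768 in shARNT. Every depleted library was above every control library in CPM. ADORA2B had 10.2 ± 0.599 CPM (SD, n = 3) with the control hairpin and 23.4 ± 1.27 in shBMAL1, 2.28-fold higher (log2 fold change 1.19, SE 0.08, adjusted p = 1.58e-10). It reached 18.2 ± 1.23 CPM in shARNT, 1.78-fold higher than shControl (log2 fold change 0.83, SE 0.08, adjusted p = 1.11e-08). These comparisons share the control libraries. The direct difference, taken between shARNT and shBMAL1 only, was -0.36 on the log2 scale (adjusted p = 0.00026), and -0.17 with library sizes unscaled (adjusted p = 0.0507). The control libraries enter it through the shared spread, filter and scaling of the fit. A processed pseudogene, ADORA2BP1, is annotated on chromosome 1 and is not a row of the table, so reads of ADORA2B could be split with it in a way that was not stated.

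Because ADORA1 and ADORA2B moved differently, the balance between the receptor that lowers cyclic AMP and one that raises it was compared within each library. Per kb of canonical transcript, the ratio of ADORA1 to ADORA2B had a mean of 1.21 ± 0.113 in shControl (SD, n = 3), with libraries between 1.14 and 1.34. It was 0.164 ± 0.00265 in shBMAL1 (0.161 to 0.166) and 0.933 ± 0.0664 in shARNT (0.894 to 1.01). The ranges of the 3 groups did not overlap. With all annotated exons merged in place of the canonical transcript, the mean ratios were 1.29, 0.175 and 0.994. The log2 ratio differed from shControl by -2.88 in shBMAL1 (two-sided exact permutation test, p = 0.1) and by -0.37 in shARNT (exact p = 0.1). With 3 samples against 3, 0.1 is the smallest p this test can give, and groups whose ranges do not overlap always give it. The pair was chosen after its levels were seen, so these p-values add no support. Over the 9 ratio comparisons made (3 pairs of genes, 3 comparisons), each p was 0.1, and so was each Benjamini-Hochberg adjusted value.

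The gene for the other receptor that raises cyclic AMP had almost no reads. ADORA2A (chromosome 22, 24813847 to 24838325, plus strand) had 0 counts in the 6 libraries of shControl and shBMAL1, and 1, 3 and 9.23 counts in shARNT. A count of 0 allowed a level of up to 0.0911 CPM in shControl and 0.0882 CPM in shBMAL1, which covers counting error only. The row cannot be read as the level of the receptor transcript, because a read-through gene, SPECC1L-ADORA2A, runs through the locus on the same strand and shares 24478 bases of the locus. SPECC1L itself was listed at 0 in all 9 libraries, while the read-through row held between 1247 and 1414 counts in shControl, between 1352 and 1398 in shBMAL1 and between 2985 and 3381 in shARNT. Reads of SPECC1L or of ADORA2A may thus stand in the read-through row. That row was 1.02 higher on the log2 scale in shARNT than in shControl (SE 0.06, adjusted p = 1.67e-12) and 0.01 higher in shBMAL1 (SE 0.06, adjusted p = 0.907). The antisense gene ADORA2A-AS1, on the minus strand, had 1 to 6.12 counts in shControl, 4 to 5.11 in shBMAL1 and 43, 52.4 and 63.9 in shARNT (log2 fold change in shARNT 3.55, SE 0.44, adjusted p = 3.19e-07). Whether the counting used strand was not stated, so sense and antisense reads of the locus cannot be told apart. The A3 receptor gene ADORA3, which is not one of the 10, had at most 10 counts in any library.

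A transporter transcript was lower in shARNT. SLC29A1 (chromosome 6, 44187290 to 44201879, plus strand) encodes ENT1, the equilibrative transporter through which adenosine is taken up. Counts were 2342, 2424 and 2121 in shControl, 2378, 2222 and 2258 in shBMAL1, and 361, 419 and 410 in shARNT. The shARNT libraries were far below the other 6, whose values overlapped. The mean fell 6.93-fold, from 69.4 ± 4.78 CPM (SD, n = 3) in shControl to a mean of 10 ± 0.789 CPM in shARNT (log2 fold change -2.79, SE 0.07, adjusted p = 2.48e-18). In shBMAL1 it was 66.8 ± 2.55 CPM, -0.05 from shControl on the log2 scale (SE 0.06, 95% confidence interval -0.18 to 0.07, adjusted p = 0.453). The direct comparison gave -2.74 (adjusted p = 3.5e-18), so the effects of both hairpins on SLC29A1 differed. Of the 8 kidney and ccRCC markers, 6 were lower in shARNT, beside 41.3% of all tested genes, and PAX8 was higher. The part of these markers in the values of SLC29A1 was not tested.

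Of the transcripts for enzymes that remove adenosine, that of the deaminase fell in shARNT and that of the kinase rose. ADA (chromosome 20, 43213537 to 43280893, minus strand) had 4397, 4438 and 4476 counts in shControl, 4813, 4909 and 5005 in shBMAL1, and 2769, 2847 and 2767 in shARNT. All shARNT libraries were well below the rest. ADA fell 1.9-fold, from 134 ± 1.81 CPM (SD, n = 3) to 70.5 ± 1.25 CPM in shARNT (log2 fold change -0.93, SE 0.04, adjusted p = 2.66e-14). In shBMAL1 it was 143 ± 3.3 CPM, a rise of 0.10 on the log2 scale (SE 0.04, adjusted p = 0.0434). This small rise rested on single libraries: without shControl replicate 1 it was 0.09 with adjusted p = 0.113, and without shBMAL1 replicate 3 it was 0.08 with adjusted p = 0.135. The direct comparison gave -1.02 (adjusted p = 5.23e-15).

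ADK (chromosome 10, 75910960 to 76469721, plus strand) had 631, 640 and 598 counts in shControl, 964, 972 and 934 in shBMAL1, and 984, 921 and 947 in shARNT. In CPM every depleted library was above the controls. The level was 18.8 ± 0.677 CPM (SD, n = 3) in shControl, 28 ± 0.43 in shBMAL1 (log2 fold change 0.57, SE 0.06, adjusted p = 2.03e-07) and 24 ± 0.789 in shARNT (log2 fold change 0.35, SE 0.06, adjusted p = 4.79e-05). With library sizes unscaled the value in shARNT was 0.59. Between the depletions, ADK was lower in shARNT by the direct comparison (log2 fold change -0.22, adjusted p = 0.00301), but with library sizes unscaled this was -0.03 with adjusted p = 0.67. The ratio of ADK to ADA per kb of canonical transcript was 0.105 ± 0.00462 (SD, n = 3) in shControl, 0.146 ± 0.00551 in shBMAL1 and 0.256 ± 0.0121 in shARNT. Its log2 was 1.28 higher in shARNT than in shControl and 0.47 higher in shBMAL1 (each with p = 0.1 in the two-sided exact permutation test, the smallest possible). ADA has 61 annotated transcripts, and its merged exons are 12177 bases long beside 1496 for the canonical transcript, so the size of this ratio depends on the length used (0.367, 0.51 and 0.89 with merged exons), while its changes between groups do not.

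**Figure D2:**
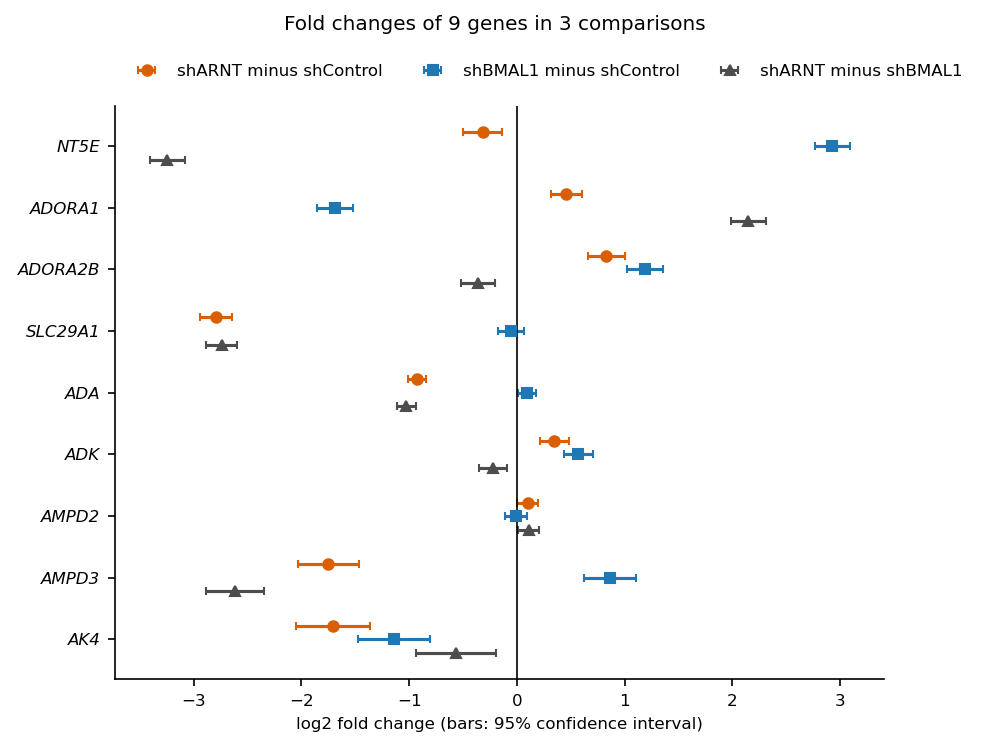
Log2 fold change (horizontal axis) of the 9 tested genes (vertical axis) in 3 comparisons, with 95% confidence intervals from edgeR's fit. NT5E (2.93 in shBMAL1) and SLC29A1 (-2.79 in shARNT) lay farthest from 0 in the comparisons with shControl, and AMPD2 lay nearest to 0 in all 3.

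The transcripts of the AMP deaminases behaved differently from each other. AMPD3 (chromosome 11, 10329860 to 10529126, plus strand), the erythrocyte form, had 219, 216 and 229 counts in shControl, 402, 459 and 392 in shBMAL1, and 81, 90 and 65 in shARNT. The groups were separate, shBMAL1 above and shARNT below shControl. From 6.69 ± 0.21 CPM (SD, n = 3) it rose 1.82-fold to 12.2 ± 0.978 in shBMAL1 (log2 fold change 0.87, SE 0.12, adjusted p = 1.96e-06). It fell 3.37-fold to 1.99 ± 0.323 CPM in shARNT (log2 fold change -1.75, SE 0.14, adjusted p = 2.53e-10). The direct comparison gave -2.62 (adjusted p = 1.86e-13).

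AMPD2 (chromosome 1, 110158726 to 110174673, plus strand) had 4060, 4369 and 4410 counts in shControl, 4356, 4407 and 4437 in shBMAL1, and 5453, 5214 and 5817 in shARNT. In CPM the control and shARNT libraries overlapped. The level was 129 ± 6.45 CPM (SD, n = 3) in shControl, 129 ± 1.63 in shBMAL1 and 139 ± 7.43 in shARNT. The log2 fold change was 0.10 in shARNT (SE 0.05, adjusted p = 0.0576), and this call was lost without shControl replicate 1 (0.06, adjusted p = 0.296), without shARNT replicate 3 (0.06, adjusted p = 0.267) and with only the 6 libraries compared in the fit (0.09, adjusted p = 0.109). With library sizes unscaled it was 0.34, again called. In shBMAL1 it was -0.01 (95% confidence interval -0.11 to 0.09, adjusted p = 0.888). The direct difference of 0.11 (adjusted p = 0.0403) was lost without shBMAL1 replicate 1 (0.10, adjusted p = 0.105) and without shARNT replicate 3 (0.07, adjusted p = 0.206), and was 0.30, again called, with library sizes unscaled. AMPD2 was the more abundant deaminase in each library: per kb of canonical transcript, AMPD3 stood at 0.0505 ± 0.0022 of AMPD2 in shControl, 0.0923 ± 0.00774 in shBMAL1 and 0.0141 ± 0.00297 in shARNT (SD, n = 3).

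AK4 fell in both depletions. AK4 (chromosome 1, 65613232 to 65697828, plus strand) had 180, 197 and 225 counts in shControl, 102, 76 and 104 in shBMAL1, and 68, 81 and 72 in shARNT. The control libraries were above all depleted libraries, and in CPM the shARNT values lay below the shBMAL1 values. The level fell 2.21-fold, from 6.07 ± 0.706 CPM (SD, n = 3) to 2.75 ± 0.472 in shBMAL1 (log2 fold change -1.14, SE 0.16, adjusted p = 4.33e-06). It fell 3.26-fold to 1.86 ± 0.17 CPM in shARNT (log2 fold change -1.70, SE 0.17, adjusted p = 8.93e-09). The direct comparison gave a log2 fold change of -0.56 in shARNT against shBMAL1 (SE 0.18, adjusted p = 0.00688), or -0.37 with library sizes unscaled (adjusted p = 0.0586). GENCODE lists 6 near copies of AK4 under the names AK4P1 to AK4P6, and none is a row of the table. How reads shared with them were counted was not stated, so the level of AK4 is uncertain to that extent. The window of AK4 printed above holds both motifs, while the window of its canonical start held no E-box. Over all windows, 43.2% held a core of the hypoxia response element and 6.34% an E-box. Any part of these motifs in the levels of AK4 was not tested.

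Levels can be set side by side across genes only per length, here as CPM per kb of the canonical transcript. In shControl the order was ADA (89.7), SLC29A1 (33.3), AMPD2 (31.7), ADK (9.45), ADORA1 (8.12), ADORA2B (6.72), NT5E (3.16), AMPD3 (1.6) and AK4 (0.886). SLC29A1 and AMPD2 overlapped between libraries there, and all other neighbours in the order were separate. In shBMAL1 NT5E stood directly after AMPD2, at 24.1 ± 0.3 CPM per kb (SD, n = 3), and ADORA1 stood next to last, at 2.52 ± 0.162. In shARNT SLC29A1 stood after ADORA1, at 4.81 ± 0.379, and ADORA2B and ADK, each at 12 CPM per kb, overlapped between libraries. AK4 was lowest in every group, at 0.402 in shBMAL1 and 0.272 in shARNT. The order depends on the length used: with merged exons the highest was SLC29A1 in shControl (16.1), NT5E in shBMAL1 (18.9) and AMPD2 in shARNT (14.9), and AK4 was again lowest in each group.

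**Figure D3:**
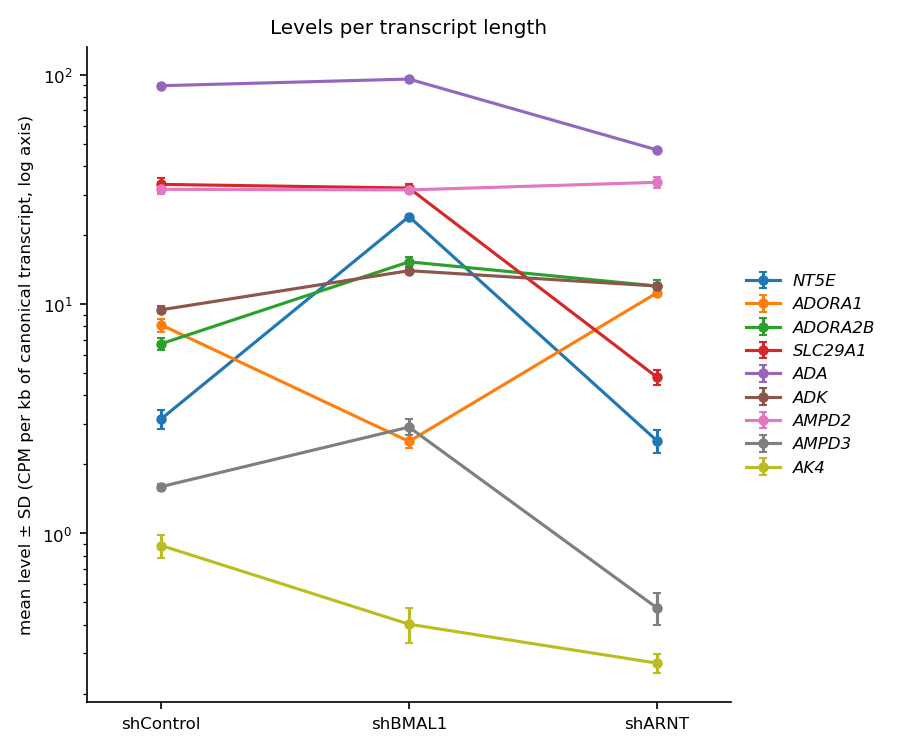
Mean level ± SD (3 replicates) in CPM per kb of canonical transcript, on a log axis, for 9 genes in the 3 groups. NT5E moved from 3.16 in shControl to 24.1 in shBMAL1, and SLC29A1 from 33.3 in shControl to 4.81 in shARNT, whereas AMPD2 stayed between 31.5 and 34.

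For each tested gene, the most similar profile was sought among tested genes whose average log2 CPM was 2 or more, as the root-mean-square difference of log2(CPM + 0.5), centred on the mean of the 9 libraries. The closest to ADORA1 was ARNTL, the targeted gene of shBMAL1, with a difference of 0.115, followed by MAZ at 0.118. ARNTL was not excluded from the search, and the likeness rests mostly on differences between 3 groups. For SLC29A1 the nearest were CDH6, a cadherin of kidney tubules, at 0.0681, and CYP2S1 at 0.0777. For NT5E the nearest were PAPLN at 0.173 and SLC2A12 at 0.238. These differences grow with a gene's own spread, whose standard deviation on the same scale was 1.44 for NT5E, 1.28 for SLC29A1 and 0.894 for ADORA1. ADORA2B was nearest to TRIM16L (0.0778) and TNFRSF21 (0.0843), ADA to GATSL3 (0.0302) and DMRTA1 (0.038), and ADK to ALDH9A1 (0.0303) and RBBP7 (0.0461). AMPD3 was nearest to STAMBPL1 (0.108) and THNSL2 (0.111), and AMPD2, which varied little, to FBXW2 (0.0387) and ATP5J (0.0395). MDGA1 was among the 2 nearest to AK4 (0.131).

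**Figure D4:**
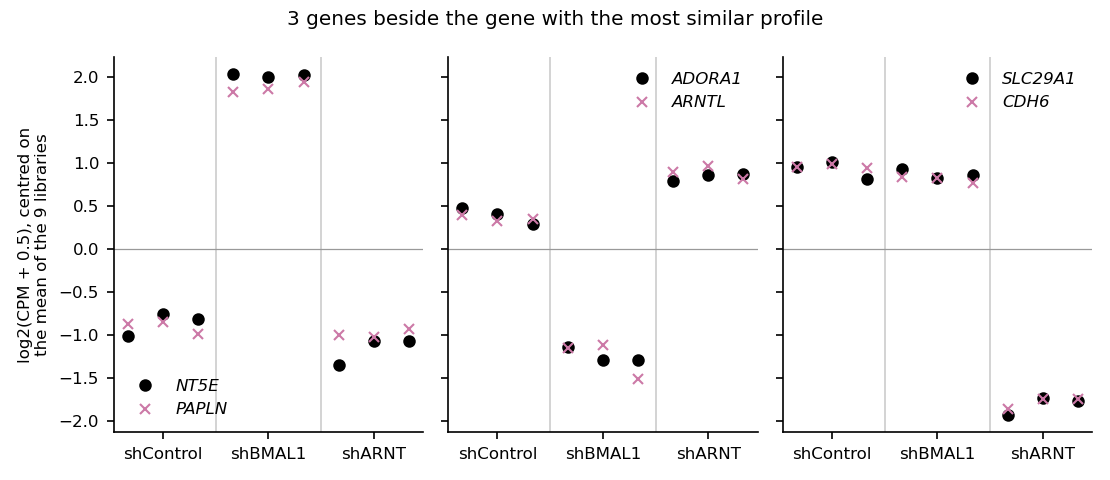
Log2(CPM + 0.5) centred on the mean of the 9 libraries (vertical axis) for NT5E, ADORA1 and SLC29A1 (circles) and the gene with the most similar profile (crosses), for 3 libraries in each group (horizontal axis). ADORA1 and ARNTL both lay between -1.5 and -1.11 in shBMAL1 and between 0.796 and 0.969 in shARNT.

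The rest of the pathway was followed through 58 listed genes in 6 lists, of which 57 were rows of the table and 46 were tested. In shARNT 25 were lower and 16 higher, in shBMAL1 12 were lower and 22 higher, and in the direct comparison 25 were lower and 14 higher in shARNT. Over all tested genes 41.3% were lower and 40.5% higher in shARNT, 31.5% and 31.9% in shBMAL1, and 41.1% and 40.1% in the direct comparison, and the counts of each list stand beside the same shares. Median log2 fold changes were -0.33, 0.11 and -0.38, beside -0.01, -0.001 and -0.01 over all tested genes.

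The list of surface nucleotide hydrolysis and other nucleotidases had 11 tested genes, and not all of them act before CD73. Of the 11, 8 fell and 1 rose in shARNT, while 2 fell and 5 rose in shBMAL1. ENPP3, a surface enzyme that cuts ATP to AMP, had 101 CPM in shControl, 16.2 in shBMAL1 (log2 fold change -2.64, adjusted p = 1.54e-16) and 1.78 in shARNT (-5.82, adjusted p = 4.18e-21). ENPP1, its relative, fell from 12.3 to 2.14 CPM in shARNT (-2.52, adjusted p = 5.04e-13) and rose to 16.4 CPM in shBMAL1 (0.42, adjusted p = 0.00248). NT5C, a soluble nucleotidase, rose from 33.5 to 49 CPM in shBMAL1 (0.55, adjusted p = 8.73e-07) and had a log2 fold change of 0.10 in shARNT (adjusted p = 0.191), or 0.34 with library sizes unscaled (adjusted p = 0.000164). ENTPD1, which encodes CD39, the usual enzyme for the step before CD73, had at most 4 counts in any library.

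In the list of the other adenosine receptor, nucleoside transport and the ADA anchor, 5 genes were tested. In shARNT 3 fell and 1 rose, and in shBMAL1 1 fell and 3 rose. SLC29A4, a transporter of monoamines and adenosine, fell from 83.4 to 17.9 CPM in shARNT (log2 fold change -2.22, adjusted p = 3.25e-18) and rose to 130 CPM in shBMAL1 (0.64, adjusted p = 1.28e-09). SLC29A3, an intracellular nucleoside transporter, rose from 14.3 to 39.5 CPM in shARNT (1.47, adjusted p = 5.48e-13) and stood at 14.3 CPM in shBMAL1 (adjusted p = 0.982). PANX1, a channel that releases ATP, rose from 12.7 to 28.6 CPM in shBMAL1 (1.17, adjusted p = 9.81e-11) and stood at 12.9 CPM in shARNT (log2 fold change 0.02, adjusted p = 0.79), or 0.26 on the log2 scale with library sizes unscaled (adjusted p = 0.00655).

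Deamination and purine salvage had 7 tested genes, of which 2 fell and 3 rose in shARNT while 3 fell and 2 rose in shBMAL1. AHCY, which releases adenosine from S-adenosylhomocysteine, rose from 156 to 251 CPM in shARNT (log2 fold change 0.69, adjusted p = 1.01e-12) and fell to 136 CPM in shBMAL1 (-0.20, adjusted p = 0.000186). MTAP, which salvages adenine from methylthioadenosine, rose by 0.88 in shARNT (adjusted p = 3.49e-12) and, to a smaller extent, by 0.43 in shBMAL1 (adjusted p = 8.32e-07). HPRT1, which salvages hypoxanthine and guanine, rose in shBMAL1 (0.82, adjusted p = 1.44e-07). In shARNT its log2 fold change was 0.19 (adjusted p = 0.0621), a call lost without shControl replicate 2 (0.15, adjusted p = 0.184), shARNT replicate 2 (0.15, adjusted p = 0.193) or shARNT replicate 3 (0.14, adjusted p = 0.196).

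Among 7 tested adenylate kinases other than AK4, 2 fell and 5 rose in shARNT, whereas 2 fell and 4 rose in shBMAL1. AK3, the mitochondrial GTP:AMP kinase, rose from 17 to 49.9 CPM in shARNT (log2 fold change 1.56, adjusted p = 4.88e-15) and fell to 14.7 CPM in shBMAL1 (-0.21, adjusted p = 0.0107). AK1, the cytosolic form, rose from 61.5 to 92.4 CPM in each depletion (log2 fold change 0.59 in each, with adjusted p = 3.4e-10 for shARNT and 1.37e-09 for shBMAL1). AK5 fell in shARNT (-1.41, adjusted p = 4e-11), with 0.10 in shBMAL1 (adjusted p = 0.342). AK8 fell in shBMAL1 (-0.79, adjusted p = 2e-06) and rose in shARNT (0.42, adjusted p = 0.000518).

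AMPK, the kinase that senses AMP, had 6 tested subunit genes, of which 5 fell and 1 rose in shARNT while 4 fell and 1 rose in shBMAL1. The regulatory β subunits moved apart. PRKAB2 fell from 112 CPM to 39.3 in shARNT (log2 fold change -1.52, adjusted p = 1.05e-15) and 49 in shBMAL1 (-1.20, adjusted p = 3.06e-13), while PRKAB1 rose from 13.6 CPM to 25.8 (0.93, adjusted p = 1.08e-10) and 22.2 (0.71, adjusted p = 3.16e-08). De novo purine synthesis had 10 tested genes. In shARNT 5 fell and 5 rose, and in shBMAL1 7 rose and 3 were not called. ATIC, the last enzyme on the way to IMP, rose from 113 CPM to 227 in shARNT (1.01, adjusted p = 2e-15) and reached 172 in shBMAL1 (0.60, adjusted p = 4.34e-11). PRPS2, which makes the ribose donor of the pathway, fell in shARNT (-1.53, adjusted p = 2.95e-14), with -0.12 in shBMAL1 (adjusted p = 0.11). ADSS, an enzyme of the step from IMP to AMP, rose by 0.72 in shARNT (adjusted p = 6.36e-11) and by 0.26 in shBMAL1 (adjusted p = 0.00022).

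**Figure D5:**
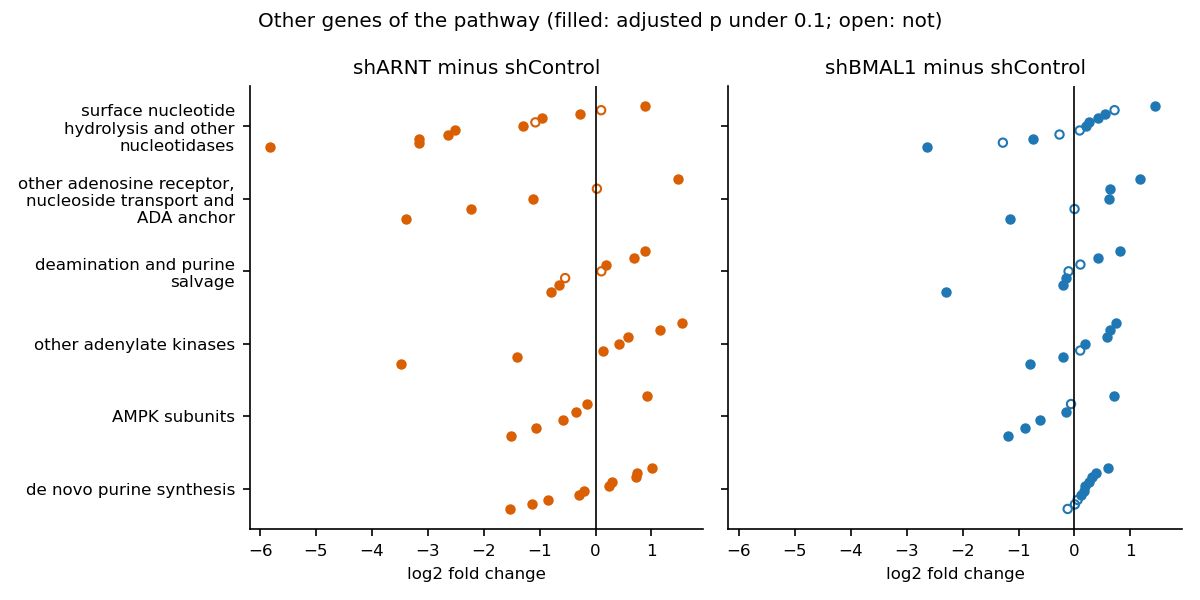
Log2 fold change (horizontal axis, the same scale in both panels) of 46 tested genes in 6 lists of the pathway (vertical axis), in shARNT and shBMAL1 against shControl. Filled points had an adjusted p under 0.1 and open points had not. ENPP3 is the leftmost point in both panels, at -5.82 in shARNT and -2.64 in shBMAL1.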

How the data were processed

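RNA from 9 A498 samples (3 groups of 3) was sequenced as stranded, paired-end mRNA libraries. The deposited values were expected counts, linear read totals for each gene that the authors had not normalized, with 0.05 for a gene without reads. The study's methods name SeqMan NGen, ArrayStar and GRCh37, whereas the submitters' processing notes name STAR, DESeq2 and hg38, so the aligner and build are uncertain. Annotation, strand use and treatment of reads with several alignments are not given in the sources used here. Here 0.05 was set to 0, 45 repeated names were summed, and counts were rounded.

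Counts were tested with edgeR 4.0.16 (R 4.3.3; filterByExpr, trimmed means of M values, glmQLFit and glmQLFTest) in a single fit of 9 libraries by group, with Benjamini-Hochberg adjustment over 15551 genes and a threshold of 0.1. SE was the absolute log2 fold change divided by the square root of F. Alternatives were DESeq2 1.42.0, other scalings, no filter, halved counts, 6-library fits, a replicate block, a threshold of 0.05 and leaving out each library. The computations were tested on simulated data.

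Genes named were the 10, ARNT, ARNTL, EPAS1, HIF1A, in each list the 2 called genes with the smallest p in each depletion, and the 2 nearest profiles of each tested gene. A further gene of this rule is not reported here. ENTPD1, ADORA3, CA9, CD68, CD3E and the neighbours of ADORA2A were named after their values were seen. The members and lists were chosen with earlier results of these data known. Levels per length, the ratios with their exact permutation tests, and merged exon length as an alternative to canonical transcript length were added after seeing the data. Positions and lengths are from GENCODE release 44 lifted to GRCh37. P-values measure the spread between these samples, which may be technical, and floors cover counting error only.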

Additional observations from a re-analysis of the deposited data

Results flagged for a closer look

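The comparison of shARNT with shBMAL1 tests whether the effects of both hairpins differ. It takes the difference between these groups only, while the control libraries enter the shared spread, filter and scaling of the fit. All 9 tested genes passed it at an adjusted p under 0.1 (edgeR's quasi-likelihood test), as did 81.2% of all tested genes. The log2 differences, shARNT minus shBMAL1, were -3.24 for NT5E (adjusted p = 1.12e-18), -2.74 for SLC29A1 (3.5e-18), 2.15 for ADORA1 (1.02e-15), -1.02 for ADA (5.23e-15) and -2.62 for AMPD3 (1.86e-13). Smaller differences were found for AK4 (-0.56, adjusted p = 0.00688), ADORA2B (-0.36, adjusted p = 0.00026), ADK (-0.22, adjusted p = 0.00301) and AMPD2 (0.11, adjusted p = 0.0403). Leaving out shBMAL1 replicate 1 or shARNT replicate 3 ended the call of AMPD2, with log2 differences of 0.10 and 0.07.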

How the results depend on the processing

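Counts of called genes stayed within 1.5 times the reported counts under all alternatives run. Without each library in turn, the called genes among the 10 were 8 to 9 in shARNT, 6 to 7 in shBMAL1 and 8 to 9 in the direct comparison. Of the alternative values for fold changes of the 9 tested genes, 446 kept direction and side of the threshold, 10 lost the call and 3 turned sign. The turned values were all of AMPD2 in shBMAL1, at 0.038 with library sizes unscaled and from -0.05 to 0.013 over the libraries left out. PANX1 in shARNT ranged from -0.027 to 0.066 over the libraries left out. SLC29A3 in shBMAL1 was -0.003 with DESeq2, -0.004 with RLE factors, -0.003 in the 6-library fit and from -0.053 to 0.048 over the libraries left out. None of these 3 values passed the test in the fit reported or where they turned sign, and the cause was not tested. At a threshold of 0.05 the calls of AMPD2 (adjusted p = 0.0576) and HPRT1 (adjusted p = 0.0621) in shARNT were lost. Deviations of samples with the same replicate number correlated at -0.165 to 0.244, above 0.1 in 1 of 9 pairs. Those of samples with different numbers correlated at -0.237 to 0.192, and values of 0.111, 0.149 and 0.192 among them also lay above 0.1. In 10 of 18 cases a sample correlated best with the library of its own number, and in 8 with a library of another number. Whether samples of the same number were paired cannot be told from these values. With the number as a replicate block, 9, 7 and 9 of the tested genes were called in shARNT, shBMAL1 and the direct comparison, as without it, and 12684, 9833 and 12591 of all genes were called, beside 12723, 9852 and 12630. ADORA2A was left untested by the filter on low counts in the fit reported. Without that filter, and with DESeq2, 10 of the 10 were called in shARNT and in the direct comparison, ADORA2A included. Over all genes, 13356 of 21449 were called in shARNT without the filter and 12703 of 18987 with DESeq2. In the direct comparison 13170 of 21449 and 12506 of 19399 were called. The call of ADORA2A rested on 0 counts in shControl and shBMAL1 beside 1, 3 and 9.23 in shARNT. Its row cannot be read as the level of the receptor transcript. With library sizes unscaled NT5C (0.34, adjusted p = 0.000164) and PANX1 (0.26, adjusted p = 0.00655) passed the test in shARNT, and PRPS2 passed it in shBMAL1 with RLE factors (-0.13, adjusted p = 0.0921), with halved counts (-0.12, adjusted p = 0.0911) and without shControl replicate 3 (-0.16, adjusted p = 0.0564).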
